A study of Homo sapiens with 8 samples.

Results

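The genes of MHC class II antigen presentation and their transactivator CIITA were examined in RNA sequencing libraries of MOLM13 cells, an established line of human acute myeloid leukemia. The members were chosen by symbol: HLA-DRA, HLA-DRB1, HLA-DPA1, HLA-DPB1, HLA-DQA1, HLA-DQB1, HLA-DMA, HLA-DMB, CD74 and CIITA, 10 of the 35369 genes listed with a symbol. All 10 passed the filter on low values, which left 13030 genes for testing. The 8 libraries form 4 groups of 2: mutant rescue, labelled as a rescue with mutated IGF2BP2 (spelled IGF2PB2 there); rescue, labelled as a rescue with IGF2BP2; knockdown, labelled as a hairpin against IGF2BP2, which encodes a reader of N6-methyladenosine in RNA; and control, labelled WT. Per the labels all cells went through viral infection, with puromycin where selection was needed. The labels describe neither the mutation nor the hairpin. They do not say whether the rescue cells carried the hairpin, whether the other cells carried an empty vector, or whether replicates were separate cultures. The spread that the p-values rest on is therefore that of these libraries and could be technical.

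MHC class II molecules are pairs of an alpha and a beta chain that show peptides from endocytosed proteins to CD4 T cells. HLA-DR, HLA-DP and HLA-DQ are the surface pairs, CD74 is the invariant chain that chaperones new pairs, and HLA-DM trades the remnant of CD74 for antigenic peptide. CIITA does not bind DNA itself: it docks on the RFX, CREB and NF-Y factors that sit on the X and Y boxes of class II promoters, and interferon gamma induces it by a route that includes IRF1. Monocytes and many myeloid leukemias carry class II molecules on their surface.

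Promoter stretches that hold letters of the X or Y box are shown first. The genes that hold the letters of the X box are set beside their changes further on. The windows run from 250 bases before to 50 bases after the RefSeq gene start in GRCh38.p14, and 8 of the 10 members had one, HLA-DPA1 with a pair of them; HLA-DRA and CIITA had none. Both strands were searched. Capitals mark the match to the X box pattern, where there is one, and a Y box match, ATTGG or its complement CCAAT; further matches in the windows are in lower case or outside the stretch.
HLA-DRB1, chr6:32589880-32589937, minus strand: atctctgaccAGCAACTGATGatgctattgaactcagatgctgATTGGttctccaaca
HLA-DQB1, chr6:32666731-32666788, minus strand: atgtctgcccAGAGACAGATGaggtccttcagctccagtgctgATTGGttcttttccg
HLA-DMA, chr6:32953162-32953220, minus strand: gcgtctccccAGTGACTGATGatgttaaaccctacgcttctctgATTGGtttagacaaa
HLA-DMB, chr6:32941036-32941126, minus strand: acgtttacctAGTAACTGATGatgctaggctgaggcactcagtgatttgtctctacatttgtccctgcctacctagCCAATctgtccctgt
CD74, chr5:150412949-150413013, minus strand: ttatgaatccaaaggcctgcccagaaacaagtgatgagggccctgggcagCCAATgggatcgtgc
HLA-DQA1, chr6:32637288-32637352, plus strand: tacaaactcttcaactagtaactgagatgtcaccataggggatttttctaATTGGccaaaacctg
HLA-DPB1, chr6:33075865-33075929, plus strand: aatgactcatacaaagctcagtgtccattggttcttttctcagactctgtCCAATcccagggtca

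The X box letters stood in 4 of the 9 member windows (HLA-DRB1, HLA-DQB1, HLA-DMA and HLA-DMB), against 2.57% of the 35116 windows of the same length in the table. The Y box letters stood in 7 of 9 against 34.6%. X letters followed by ATTGG on the same strand, 15 to 30 bases on, an arrangement set after these windows were read, were found in 11 windows of the table (0.0313%), among them those of HLA-DRB1, HLA-DQB1, HLA-DMA and also HLA-DRB5. The gap was 22 bases in HLA-DRB1 and HLA-DQB1 and 23 in HLA-DMA, while in HLA-DMB the next Y letters lay 55 bases on and on the other strand. Of the interferon response letters, TTCNNNGAA (GAS) was found in the HLA-DQA1 window, against 7.66% of the table, and the ISRE pattern in none of the 9, against 3.57%. These are matches of letters and not measured sites.

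The deposited values are log2 levels normalized across the libraries by the authors, so the read depth is unknown. Levels of different genes are not ranked, since it is not stated whether the values are per length. The ppm given for marker lists are shares of these values, so sums of different lists are not compared either. The difference between the replicates, as an SD across genes, was 0.303 in mutant rescue, 0.232 in rescue, 0.148 in knockdown and 0.212 in control. IGF2BP2 stood at log2 values of 11.03 and 10.68 in mutant rescue, 11.36 and 11.13 in rescue, 10.24 and 10.25 in knockdown and 10.94 and 10.89 in control, lower in knockdown than in control by the test (-0.67, SE 0.13, adjusted p = 0.0147). All 10 markers of myeloid leukemia passed the filter. Their summed level was 16438 to 24019 ppm of the library total in mutant rescue, 8226 to 9454 in rescue, 11159 to 11602 in knockdown and 3705 to 4031 in control. A sum of linear values rests mostly on the most abundant markers, so it does not show that each marker differed. Its part in the class II results was not tested. Of 6 B cell markers 1 passed, MS4A1 was at 0, and the sum was 2.81 to 2.93 ppm in mutant rescue, 4.01 to 4.22 in rescue, 3.39 to 3.52 in knockdown and 3.31 to 3.49 in control. Of 6 dendritic cell markers 3 passed, CLEC9A was at 0, and the sum lay between 7.37 and 8.97 ppm in every library. Of 5 T and NK cell markers 1 passed, CD3E was at 0, and the sum lay between 16.8 and 20.8 ppm, while none of 4 erythroid markers passed, HBA1 was at 0 and the sum was at most 0.132 ppm. In such bulk libraries, fewer cells with class II transcripts and less transcript per cell cannot be told apart.

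**Figure D1:**
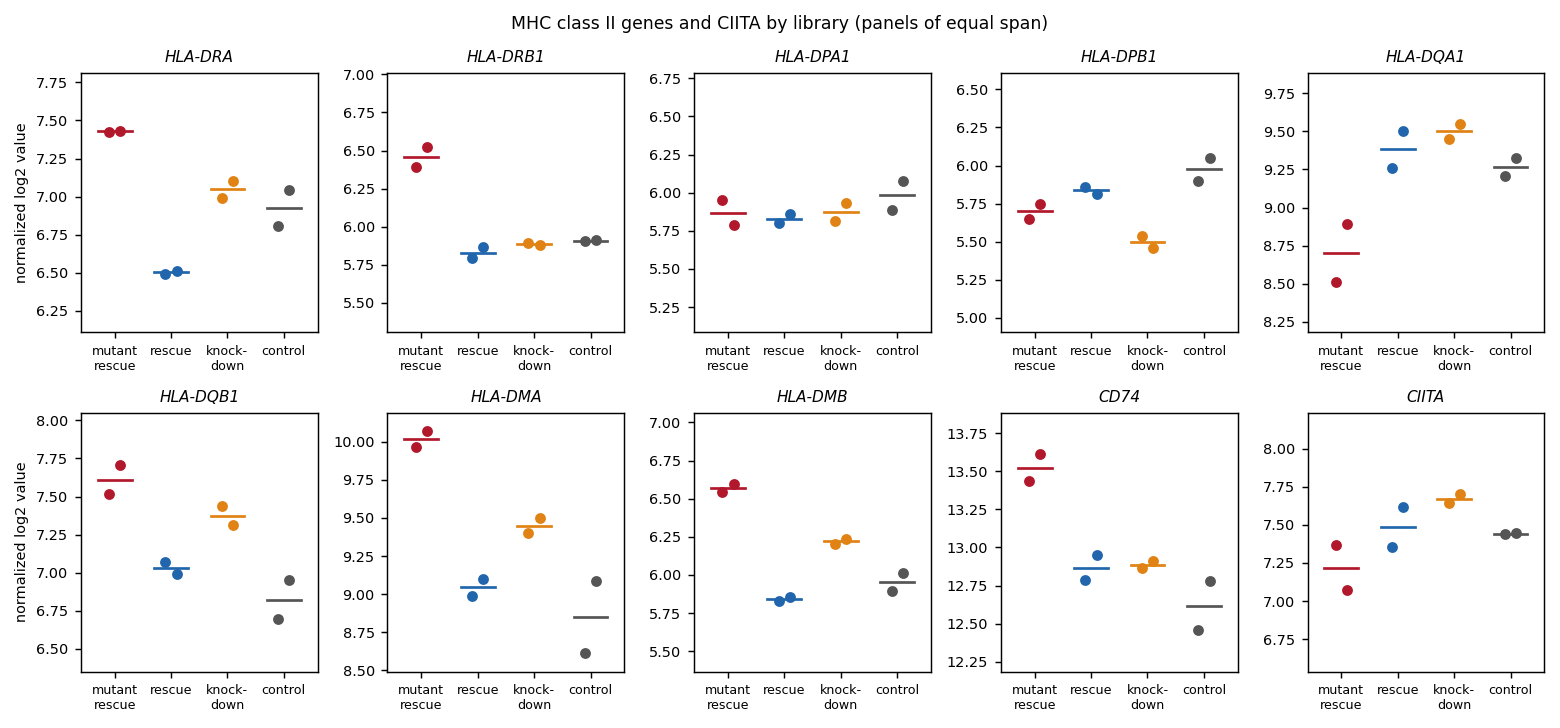
Normalized log2 value (y axis) of each member in each library, by group (x axis); points are libraries, lines are means of 2, and all panels span the same number of log2 units. HLA-DRA, HLA-DRB1, HLA-DQB1, HLA-DMA, HLA-DMB and CD74 are highest in both mutant rescue libraries, where HLA-DQA1 is lowest (8.51 and 8.89).

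The comparison of mutant rescue with rescue asks what differs between cells given the mutant and cells given the intact protein. Class II transcripts were higher in mutant rescue: 6 of 10 members rose, HLA-DRA, HLA-DRB1, HLA-DQB1, HLA-DMA, HLA-DMB and CD74, while HLA-DQA1 fell and HLA-DPA1, HLA-DPB1 and CIITA did not pass the test. The background was 10.5% of all 13030 genes, 4.61% called higher and 5.9% called lower. The libraries of the 2 groups did not overlap for 8 of 10 members, beside 58.0% of all genes. The median log2 difference of the members was 0.60, beside 0.02 over all genes. On the deposited values the rises lay between 0.58 and 0.97 on the log2 scale. The authors' deposited table gave larger differences for the same 6 genes, 0.78 (CD74) to 1.76 (HLA-DRA). The gap was wider for HLA-DRA (0.92 against 1.76) than for CD74 (0.66 against 0.78), so the deposited values are not read as folds. The cause of the gap was not tested. The count of 7 calls was 5 without mutant rescue replicate 2, rescue replicate 1, knockdown replicate 1 or knockdown replicate 2, and 3 without rescue replicate 2. In a fit of only these 4 libraries 2 calls were left, HLA-DRA and HLA-DMA, named after their values were seen.

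HLA-DRA (chromosome 6, 32439842 to 32445046, plus strand, GRCh38, protein coding) encodes the alpha chain shared by all HLA-DR molecules. Its log2 values were 7.43 and 7.43 in mutant rescue and 6.49 and 6.51 in rescue, with 6.99 and 7.10 in knockdown and 6.81 and 7.05 in control. The groups did not overlap except knockdown and control, and mutant rescue was the highest and rescue the lowest. HLA-DRA was higher in mutant rescue than in rescue by 0.92 (SE 0.12, 95% interval 0.64 to 1.21, adjusted p = 0.00420). The authors' deposited table gave 1.76 (adjusted p = 0.000155).

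HLA-DRB1 (chromosome 6, 32578769 to 32589848, minus strand, protein coding) encodes the polymorphic beta chain that pairs with it. Its log2 values were 6.39 and 6.52 in mutant rescue, 5.79 and 5.87 in rescue, 5.89 and 5.88 in knockdown and 5.90 and 5.91 in control. Both mutant rescue libraries stood above the other 6, all of which lay between 5.79 and 5.91. The difference from rescue was 0.63 (SE 0.10, adjusted p = 0.00909), against 1.47 in the authors' deposited table (adjusted p = 0.0229). This call was lost without rescue replicate 2 (adjusted p = 0.0533).

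HLA-DQA1 (chromosome 6, 32628179 to 32647062, plus strand, protein coding) and HLA-DQB1 (chromosome 6, 32659467 to 32668383, minus strand, protein coding) encode the chains of HLA-DQ, and moved in opposite directions. HLA-DQA1 had log2 values of 8.51 and 8.89 in mutant rescue, 9.26 and 9.50 in rescue, 9.45 and 9.55 in knockdown and 9.21 and 9.32 in control. Both mutant rescue libraries lay below the other 6, which overlapped between rescue and knockdown and between rescue and control. HLA-DQA1 fell by 0.68 in mutant rescue against rescue (SE 0.15, adjusted p = 0.0257). HLA-DQB1 had log2 values of 7.51 and 7.71 in mutant rescue, 7.07 and 6.99 in rescue, 7.44 and 7.31 in knockdown and 6.70 and 6.95 in control. These groups did not overlap and ran, from high to low, mutant rescue, knockdown, rescue and control. HLA-DQB1 was higher by 0.58 in mutant rescue than in rescue (SE 0.14, adjusted p = 0.0350). The HLA-DQA1 call was lost without rescue replicate 2 (adjusted p = 0.153) or either knockdown library (0.0589 and 0.0590). The HLA-DQB1 call was lost without mutant rescue replicate 2 (adjusted p = 0.109), either rescue library (0.0878 and 0.165) or either knockdown library (0.0729 and 0.0728).

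The log2 value of HLA-DQA1 minus that of HLA-DQB1 was 1.00 and 1.19 in mutant rescue, 2.19 and 2.51 in rescue, 2.01 and 2.24 in knockdown and 2.51 and 2.37 in control. The mutant rescue libraries thus lay below all others, and these are values with no test. HLA-DRA minus HLA-DRB1 was 1.03 and 0.91 in mutant rescue, 0.70 and 0.65 in rescue, 1.10 and 1.22 in knockdown and 0.90 and 1.14 in control, lowest in rescue. HLA-DMA minus HLA-DMB was 3.42 and 3.47 in mutant rescue, above 3.16 and 3.25 in rescue, 3.19 and 3.26 in knockdown and 2.72 and 3.07 in control. HLA-DPA1 minus HLA-DPB1 was 0.30 and 0.04 in mutant rescue, -0.06 and 0.04 in rescue, 0.28 and 0.47 in knockdown and -0.01 and 0.03 in control.

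**Figure D2:**
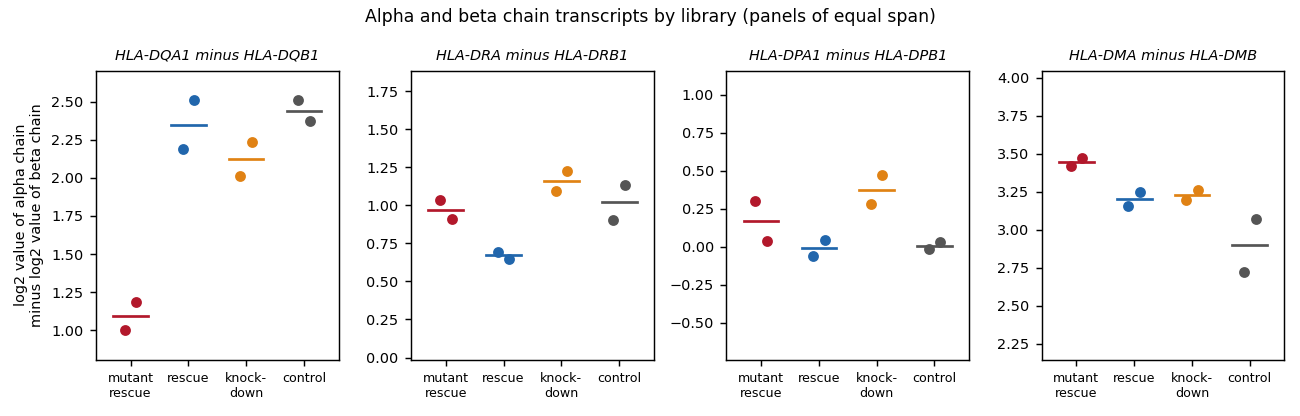
Log2 value of the alpha chain gene minus that of the beta chain gene (y axis) in each library, by group (x axis), for 4 class II pairs; points are libraries, lines are means of 2, and all panels span the same number of log2 units. The HLA-DQ panel shows mutant rescue at 1.00 and 1.19, below every other library.

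HLA-DPA1 (chromosome 6, 33064569 to 33080775, minus strand, protein coding) and HLA-DPB1 (chromosome 6, 33075926 to 33087201, plus strand, protein coding) encode the chains of HLA-DP. HLA-DPA1 had log2 values of 5.95 and 5.79 in mutant rescue, 5.80 and 5.86 in rescue, 5.82 and 5.93 in knockdown and 5.89 and 6.08 in control, a range of 0.29 over the 8 libraries. It was called in none of the 6 comparisons among the groups. For mutant rescue against rescue its difference was 0.04 (95% interval -0.22 to 0.30), against 0.12 in the authors' deposited table (adjusted p = 0.932). The deposited values gave smaller differences than that table for the 6 members that rose. The interval therefore does not bound a rise on the scale of that table. HLA-DPB1 had log2 values of 5.65 and 5.75 in mutant rescue, 5.86 and 5.82 in rescue, 5.54 and 5.46 in knockdown and 5.90 and 6.05 in control. It was lowest in knockdown and highest in control, and mutant rescue differed from rescue by -0.14 (95% interval -0.37 to 0.09, adjusted p = 0.379).

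HLA-DMA (chromosome 6, 32948613 to 32969094, minus strand, protein coding) and HLA-DMB (chromosome 6, 32934629 to 32941070, minus strand, protein coding) encode the peptide exchange factor. HLA-DMA had log2 values of 9.96 and 10.07 in mutant rescue, 8.99 and 9.10 in rescue, 9.40 and 9.50 in knockdown and 8.61 and 9.08 in control. Mutant rescue was above knockdown, and knockdown above rescue and control, which overlapped each other. HLA-DMA was higher in mutant rescue than in rescue by 0.97 (SE 0.15, adjusted p = 0.00795), the largest difference of the members on these values. The authors' deposited table gave 1.26 for it (adjusted p = 2.56e-06), below HLA-DRA, HLA-DMB and HLA-DRB1 there. HLA-DMB had log2 values of 6.54 and 6.60 in mutant rescue, 5.83 and 5.85 in rescue, 6.21 and 6.23 in knockdown and 5.89 and 6.01 in control. Mutant rescue was the highest group and knockdown came next, with control just above rescue and no overlap between groups. Mutant rescue exceeded rescue by 0.73 (SE 0.10, adjusted p = 0.00523), against 1.72 in the authors' deposited table (adjusted p = 0.00466).

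CD74 (chromosome 5, 150401637 to 150412929, minus strand, protein coding), the invariant chain, lies outside the MHC region. Its log2 values were 13.43 and 13.61 in mutant rescue, 12.78 and 12.95 in rescue, 12.86 and 12.91 in knockdown and 12.46 and 12.78 in control. Mutant rescue lay above the other 6 libraries, and the ranges of rescue and knockdown overlapped. CD74 was higher in mutant rescue than in rescue by 0.66 (SE 0.13, adjusted p = 0.0182). The call was lost without mutant rescue replicate 2 (adjusted p = 0.0650) or either rescue library (0.0853 and 0.0713).

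CIITA (chromosome 16, 10866222 to 10943021, plus strand, protein coding) was called in none of the 6 comparisons. Its log2 values were 7.37 and 7.07 in mutant rescue, 7.36 and 7.62 in rescue, 7.64 and 7.70 in knockdown and 7.44 and 7.45 in control. Knockdown was the highest group and mutant rescue had the lowest mean, with 1 mutant rescue library level with 1 rescue library. The difference between mutant rescue and rescue was -0.27 (95% interval -0.60 to 0.06, adjusted p = 0.236), and that between mutant rescue and knockdown -0.45 (95% interval -0.78 to -0.12, adjusted p = 0.0734). The difference from knockdown passed without mutant rescue replicate 1 (-0.60, adjusted p = 0.0284). The mean CIITA level was lowest in mutant rescue, where 6 other members rose against rescue. The table gives 1 value for the gene, so transcripts from its alternative promoters cannot be told apart.

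The 6 members higher in mutant rescue than in rescue include 5 with a promoter window, of which 4 held the X box letters (HLA-DRB1, HLA-DQB1, HLA-DMA and HLA-DMB). The letters were in no window of the 3 other members that had one, HLA-DQA1, HLA-DPA1 and HLA-DPB1. This comparison was made after the values were known, and nothing on the binding of a factor follows from it.

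**Figure D3:**
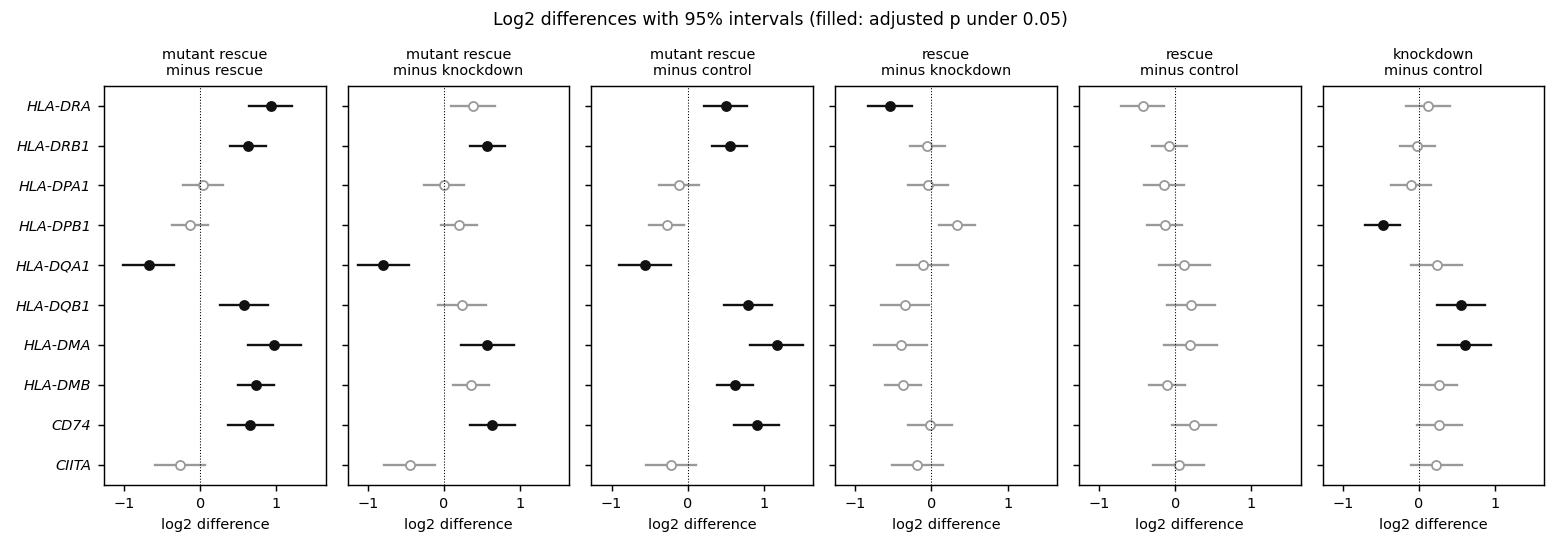
Log2 difference (x axis) of each member (rows) in 6 comparisons (panels), with 95% intervals from the fit across all genes; filled points passed at an adjusted p under 0.05. In mutant rescue minus rescue 7 of 10 members are filled, 6 to the right of 0 and HLA-DQA1 to the left.

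Mutant rescue was set against knockdown next. Here 3 members rose, HLA-DRB1 (0.57, SE 0.10, adjusted p = 0.0172), HLA-DMA (0.57, SE 0.15, adjusted p = 0.0472) and CD74 (0.64, SE 0.13, adjusted p = 0.0245), and HLA-DQA1 fell (-0.80, SE 0.15, adjusted p = 0.0194). The background was 11.3% of all genes, 5.58% called higher and 5.73% called lower. The share of calls that were higher was 49.4%, or 28.7% with each library centred on its median. For 9 of 10 members the libraries did not overlap, beside 63.0% of all genes. HLA-DRA (0.38, adjusted p = 0.0789) and HLA-DMB (0.35, adjusted p = 0.0593) did not pass although their libraries did not overlap. The median over members was 0.29, beside 0.05 over all genes. The count of 4 was 0 without either knockdown library, 2 without mutant rescue replicate 2, where HLA-DMA (adjusted p = 0.134) and CD74 (0.0774) were lost, and 1 in a fit of these 4 libraries, CD74. HLA-DMA also failed without either rescue library (adjusted p = 0.0655 for each), and under library centring (0.0697), a fit lacking the mean trend (0.0552), a fit of all genes unfiltered (0.0602) and a filter at 5 ppm (0.0513). HLA-DRB1 had adjusted p = 0.0529 by the authors' deposited table.

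Between mutant rescue and control 6 members rose and 1 fell, against a background of 24.9% of all genes (13.9% called higher and 11.0% called lower). The libraries did not overlap for 9 of 10 members, beside 62.5% of all genes. The share of calls that were higher over all genes was 55.8%, or 43.2% with each library centred on its median. HLA-DMA was higher in mutant rescue by 1.17 (SE 0.15, adjusted p = 0.00146). The others were CD74 (0.90, SE 0.13, adjusted p = 0.00206), HLA-DQB1 (0.79, adjusted p = 0.00517), HLA-DMB (0.62, adjusted p = 0.00415), HLA-DRB1 (0.55, adjusted p = 0.00656) and HLA-DRA (0.50, adjusted p = 0.0218). HLA-DQA1 fell by 0.56 (adjusted p = 0.0261). The order differed in the authors' deposited table, with 1.51 for HLA-DMA, 1.41 for HLA-DMB, 1.40 for HLA-DQB1, 1.27 for HLA-DRB1, 1.08 for CD74 and 0.88 for HLA-DRA. The median over members was 0.52, beside 0.01 over all genes. The HLA-DRA call was lost without mutant rescue replicate 2 (adjusted p = 0.0501), without control replicate 1 (0.128) and in a fit of these 4 libraries (0.0741), and the authors' deposited table gave it an adjusted p of 0.0680. The HLA-DQA1 call was lost without mutant rescue replicate 1 (0.0767), control replicate 1 (0.0817), control replicate 2 (0.119), knockdown replicate 1 (0.0514) or knockdown replicate 2 (0.0515), and in a fit of these 4 libraries (0.0644). The 3 comparisons with mutant rescue share its libraries, so they do not support one another.

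No class II member was called higher in rescue against knockdown. With only 10 members this is close to the 3.22% called higher over all genes. In rescue against knockdown HLA-DRA fell by 0.55 (SE 0.12, adjusted p = 0.0487), and the other 9 members did not pass, against a background of 4.24% of all genes (3.22% called higher and 1.02% called lower). The libraries did not overlap for 7 of 10 members, beside 58.2% of all genes. HLA-DRA had -1.11 in the authors' deposited table (adjusted p = 0.0238), where HLA-DMA was also lower (-0.53, adjusted p = 0.0315). HLA-DMB (-0.38, adjusted p = 0.0830), HLA-DMA (-0.40, adjusted p = 0.191) and HLA-DQB1 (-0.34, adjusted p = 0.215) had 95% intervals below 0 without passing, and HLA-DPB1 had one above 0 (0.34, adjusted p = 0.111). For CD74 the difference was -0.02 (95% interval -0.31 to 0.27). The median over members was -0.15, beside 0.00454 over all genes. The HLA-DRA call was lost in each fit that left out a rescue, knockdown or control library (adjusted p between 0.0564 and 0.351) and with each library centred on its median (0.0561).

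In rescue against control none of the 10 members was called by limma, and 1, HLA-DRA (-0.43, 95% interval -0.71 to -0.14, adjusted p = 0.0827), had an unadjusted p under 0.05. By limma 7.18% of all genes were called there (4.91% higher and 2.27% lower), so with only 10 members no call is close to that share. The authors' deposited table called 0 members as well, and 1055 of the genes tested here. The libraries did not overlap for 7 of 10 members, beside 52.1% of all genes. The median over members was -0.02, beside -0.01 over all genes.

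In knockdown against control the members did not move together: HLA-DQB1 (0.55, SE 0.14, adjusted p = 0.0343) and HLA-DMA (0.60, SE 0.15, adjusted p = 0.0366) rose, HLA-DPB1 fell (-0.48, SE 0.10, adjusted p = 0.0212), and 7 did not pass. The background was 12.8% of all genes, 5.35% called higher and 7.44% called lower. The libraries did not overlap for 8 of 10 members, beside 64.1% of all genes. For HLA-DPB1, HLA-DQB1 and HLA-DMA the authors' deposited table gave -1.44, 0.96 and 0.72 (adjusted p = 0.0196, 0.0239 and 0.0101). HLA-DRB1 (-0.02, 95% interval -0.25 to 0.21) and CIITA (0.23, 95% interval -0.10 to 0.56) did not pass, and the median over members was 0.23, beside 0.01 over all genes. The count of 3 was 1 without control replicate 1, control replicate 2, rescue replicate 1 or rescue replicate 2, and 0 without either knockdown library. HLA-DPB1 was lost without control replicate 2 (adjusted p = 0.127) or either knockdown library (0.120 and 0.173). HLA-DQB1 was lost without each control, knockdown or rescue library (adjusted p between 0.0522 and 0.225), and HLA-DMA without each of these except control replicate 2 (between 0.0548 and 0.229) and in a fit of all genes unfiltered (0.0501).

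The genes most like a member were those with the smallest root mean square distance between centred log2 values over the 8 libraries. For HLA-DRA they were CACNA2D4 (0.0997), HS6ST2 (0.107), HLA-DMB (0.119), TMEM107 (0.119) and TGM5 (0.127). Among all genes tested HLA-DMB ranked 3 in likeness to HLA-DRA, HLA-DRB1 ranked 118, HLA-DQB1 665, CD74 1102, HLA-DMA 1386, HLA-DPA1 3843, HLA-DPB1 9727, CIITA 10147 and HLA-DQA1 12475. For CD74 they were MDH1 (0.0576), GPSM3 (0.0835), LYPLAL1 (0.0945), TWF2 (0.0949) and RAD52 (0.0953), with HLA-DRB1 at 0.164, HLA-DQB1 at 0.170, HLA-DMA at 0.171, HLA-DMB at 0.176, HLA-DRA at 0.264, HLA-DPA1 at 0.377, HLA-DPB1 at 0.443, CIITA at 0.481 and HLA-DQA1 at 0.617. For CIITA they were PHTF2 (0.0491), MRPS31P5 (0.0586), FAM156A (0.0605), RP11-793H13.10 (0.0607) and THSD4 (0.0623), and its distance to the other members ran from 0.190 (HLA-DPA1) to 0.566 (HLA-DMA).

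Genes of the factors that carry CIITA on class II promoters were called only in knockdown and in mutant rescue, each against control. None of the 7 genes RFX5, RFXAP, RFXANK, NFYA, NFYB, NFYC and CREB1 was called in mutant rescue against rescue, in mutant rescue against knockdown, in rescue against knockdown or in rescue against control. Over all genes 10.5%, 11.3%, 4.24% and 7.18% were called there, in that order. With only 7 genes, no calls is close to these shares. In mutant rescue against rescue their differences lay between -0.27 (NFYB) and 0.35 (RFXANK), with a median of -0.06, the value of RFX5. In knockdown against control NFYA (-0.46, adjusted p = 0.0401) and NFYB (-0.42, adjusted p = 0.0317), subunits of the Y box factor, fell. Over all genes 5.35% were called higher and 7.44% lower there. NFYA was lost without any 1 control, knockdown or rescue library (adjusted p between 0.0616 and 0.256), and NFYB without control replicate 2 (0.156) or either knockdown library (0.223 and 0.177). In mutant rescue against control NFYC, the remaining subunit, rose (0.36, adjusted p = 0.0317) and NFYA fell (-0.39, adjusted p = 0.0445). Over all genes 13.9% were called higher and 11.0% lower there. NFYC was lost in 5 of the 8 fits that left out 1 library (0.0634 to 0.129) and NFYA in 7 (0.0630 to 0.172).

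Of the genes upstream of CIITA, IRF1 was higher in rescue than in the other groups. IRF1, a factor that acts on the CIITA promoter, had log2 values of 8.67 and 8.78 in mutant rescue, 10.52 and 10.43 in rescue, 9.00 and 9.09 in knockdown and 8.85 and 8.87 in control. Both rescue libraries lay above the other 6. IRF1 was higher in rescue than in knockdown by 1.43 (adjusted p = 5.21e-05), and mutant rescue differed from rescue by -1.75 (adjusted p = 4.78e-05). These calls on IRF1 held in each fit that left out 1 library. IRF2, a related factor, had log2 values of 8.79 and 8.63 in mutant rescue, 8.97 and 9.15 in rescue, 8.15 and 8.31 in knockdown and 8.02 and 8.18 in control. It was higher in rescue than in knockdown (0.83, adjusted p = 0.00851), a call lost without rescue replicate 2 (0.0748) or either knockdown library (0.122 and 0.0568). It was also higher in mutant rescue than in knockdown (0.48, adjusted p = 0.0469), a call lost in all 8 fits that left out 1 library (0.0588 to 0.246). SOCS1 and IRF4 did not pass the filter.

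NLRC5, a relative of CIITA, controls class I presentation genes through like promoter boxes. Of 13 class I genes, 0 rose and 7 fell in mutant rescue against rescue, beside 4.61% of all genes called higher and 5.9% called lower. The smallest adjusted p-values were those of TAP1 (-1.63, adjusted p = 0.000640), a chain of the peptide transporter, and the immunoproteasome gene PSMB9 (-1.08, adjusted p = 0.00103), and TAP2, the other transporter chain, differed by -1.14 (adjusted p = 0.00292). The list had a median of -0.58 beside 0.60 for the class II members. In rescue against knockdown 7 rose and 0 fell, beside 3.22% of all genes called higher and 1.02% called lower. The median was 0.89 beside -0.15 for the class II members. The difference between the lists was not tested. The count of 7 in mutant rescue against rescue was 4 without rescue replicate 2. In mutant rescue against knockdown 5 rose and 0 fell, with a median of 0.47 beside 0.29 for class II, and the count was 0 without either knockdown library and 3 without mutant rescue replicate 2. Over all genes 5.58% were called higher and 5.73% lower in mutant rescue against knockdown, and 13.9% and 11.0% in mutant rescue against control. In mutant rescue against control 11 class I genes rose and 0 fell, with a median of 0.64 beside 0.52. That count was 5 without control replicate 2 and 6 without mutant rescue replicate 2, control replicate 1 or either knockdown library.

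Genes of the endosomal steps that supply class II with peptide were higher in all 3 manipulated groups than in control. Of 7 tested genes 5 rose and 0 fell in mutant rescue, in rescue and in knockdown, each against control, with medians of 1.00, 0.67 and 0.89. Over all genes 13.9%, 4.91% and 5.35% were called higher there, in that order, and 4.61% in mutant rescue against rescue. IFI30, the lysosomal thiol reductase that opens disulfides of antigens, had log2 values of 10.69 and 10.54 in mutant rescue, 10.06 and 10.03 in rescue, 10.15 and 10.01 in knockdown and 8.67 and 8.69 in control. Control lay below the other 6 libraries for IFI30, CTSD, CTSB, CTSS and CTSL, the last 4 being cathepsin genes. In mutant rescue against rescue 3 rose, CTSD (0.79, adjusted p = 0.00545), CTSB (0.69, adjusted p = 0.00684) and IFI30 (0.57, adjusted p = 0.0129), and without rescue replicate 2 none of the list was called (0.0552, 0.0690 and 0.0874 in that order). The IFI30 call was also lost without rescue replicate 1 (0.0506). In rescue against control the count of 5 was 3 without rescue replicate 1 or control replicate 1, and in knockdown against control it was 3 without knockdown replicate 2.

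**Figure D4:**
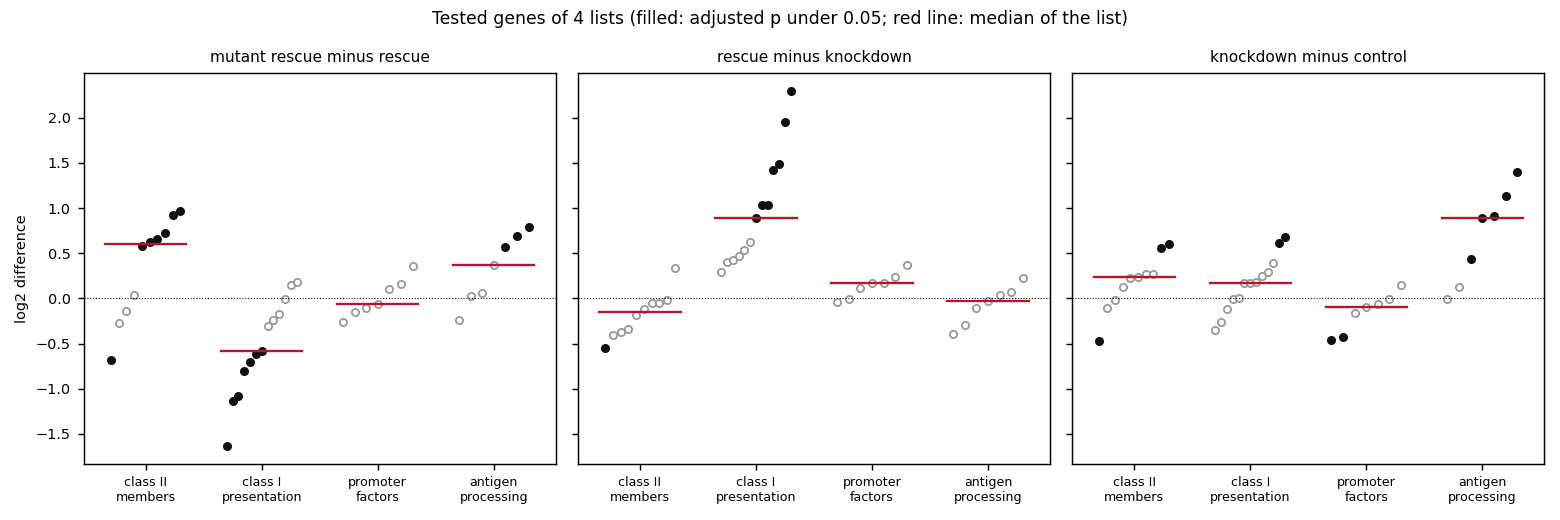
Log2 difference (y axis) of the tested genes of 4 lists (x axis) in 3 comparisons (panels); filled points passed at an adjusted p under 0.05 and red lines are medians of a list. In mutant rescue minus rescue the class II members have a median of 0.60 and the class I genes one of -0.58.

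Of 9 other class II loci listed, HLA-DOA, HLA-DOB and HLA-DRB3 passed the filter, and HLA-DRB4 was at 0 in every library. HLA-DOB, the beta chain of the HLA-DM inhibitor, had log2 values of 6.13 and 5.95 in mutant rescue, 6.78 and 6.56 in rescue, 5.81 and 5.96 in knockdown and 5.14 and 5.82 in control. It was higher in rescue than in control (1.20, adjusted p = 0.0104), a call lost without rescue replicate 1 (0.0613), and is the only one of the 3 called in any of the 6 comparisons. HLA-DOA, its alpha chain, lay between 4.03 and 4.26.

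Of the costimulatory genes, CD86, which encodes a ligand of CD28, had log2 values of 8.37 and 8.10 in mutant rescue, 8.10 and 8.23 in rescue, 7.83 and 8.09 in knockdown and 6.77 and 6.74 in control. It was higher than in control by 1.48 in mutant rescue (adjusted p = 0.000340), 1.41 in rescue (adjusted p = 0.000511) and 1.21 in knockdown (adjusted p = 0.00203). CD58 and ICAM1 were not called, and CD80 and CD40 did not pass the filter. Of 5 genes that act with CD74, MIF, which encodes its ligand, fell in knockdown against control (-0.74, adjusted p = 0.0144). CD44, which encodes its co-receptor, rose there (0.41, adjusted p = 0.0462). Over all genes 12.8% were called in knockdown against control and 24.9% in mutant rescue against control. MIF was lost without control replicate 2 (0.0935) or either knockdown library (0.106 and 0.134), and CD44 without each control, knockdown or rescue library (0.0718 to 0.238). CXCR2, a receptor of MIF, rose in mutant rescue against control (0.56, adjusted p = 0.0143, and 0.0872 without control replicate 1), and none of the 5 was called in the other 4 comparisons.

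Part of the sequence of some members is shared with other genes, so reads could be assigned to either. Of the 31-base words in the reference transcript, 24.6% in HLA-DRB1 occur in a transcript of another gene, most of them in HLA-DRB5. The share was 17.2% in HLA-DQA1 (all in HLA-DQA2), 16.2% in HLA-DQB1 (most in its antisense gene HLA-DQB1-AS1), 29.99% in HLA-DMB and 13.2% in HLA-DMA (both in AL645941.2), 10.4% in HLA-DPB1, 24.8% in CIITA, 0.0597% in HLA-DPA1 and 0 in HLA-DRA and CD74. HLA-DRB5 stood at -1.72 to -1.73 and HLA-DQA2 at -2.09 in every library, far below the filter. HLA-DRB3, another class II locus, passed the filter at log2 values of 4.59 to 4.99. How much sequence it shares with HLA-DRB1 was not examined separately. The HLA genes are polymorphic, and how well the alleles of this line match the reference was not tested. The values of HLA-DRB1, HLA-DQA1, HLA-DQB1, HLA-DMA, HLA-DMB, HLA-DPB1 and CIITA are uncertain to that extent.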

How the data were processed

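Polyadenylated RNA of MOLM13 cells was sequenced in 8 libraries, grouped by their titles. Per the file headers, the authors ran getDiffExpression.pl of HOMER on a gene table; the submitters' processing notes also name Trim Galore, kallisto and GRCh38, with no role or version. Each library has a column of deposited log2 values, normalized by the authors with an option that neither header nor labels state. The authors also deposited a log2 fold change, a p-value and an adjusted p-value per comparison; their A vs. B columns hold B minus A, checked against the library values. Depth is unknown, so precision rests on 2 libraries per group.

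limma 3.58.1 (R 4.3.3) was run on the log2 values with no pseudocount, as the unit requires. A gene was kept where 2 or more libraries gave it 1 ppm of their summed linear values (log2 3.76 to 4.01). All 8 libraries entered 1 fit with a mean per group, leaving 4 residual degrees of freedom, and a mean trend. Calls are at a Benjamini-Hochberg adjusted p under 0.05 over 13030 genes within each of 6 comparisons, which share libraries. The procedure was tested on simulated data. Alternatives left out each library, changed the filter, trend, centring or libraries fitted, added the replicate number, or took the authors' test. Positions are from GENCODE v29, promoter sequences from RefSeq, and shared 31-base words from the GENCODE v29 transcript of each member with the principal tag. The members and lists were chosen with earlier results of these data known. Named are all members, IGF2BP2, and list genes with the smallest adjusted p, up to 4 per list and comparison, besides others given to complete a list. Counts over the list of genes upstream of CIITA are not reported here.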

Additional observations from a re-analysis of the deposited data

How the results depend on the processing

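The direction of the 22 differences called among members held in every alternative tried, and the calls that were lost stand beside them in the report. With the replicate number as a block, the members called were 3, 1, 4, 7, 0 and 7 as without it, and 1787 genes were called in knockdown against control, beside 1667. Deviations of same-numbered libraries correlated with r = 0.41 between knockdown and rescue, and with r between -0.02 and 0.19 in the other pairs of groups. The labels do not say that a number marks a shared culture. When only the 4 libraries compared were fitted, the members called were 2 in mutant rescue against rescue (7 with all libraries), 1 in mutant rescue against knockdown (4) and 2 in rescue against knockdown (1). All genes called were then 192 against 1370, 279 against 1473 and 1246 against 553 in the same order, 1793 against 3241 in mutant rescue against control and 2620 against 1667 in knockdown against control. The authors' deposited test called 2 members in rescue against knockdown, and 1318 of the genes tested here there and 2615 in knockdown against control. With centred libraries 0 members were called in rescue against knockdown. Leaving out 1 library gave 3 to 7 members called in mutant rescue against rescue, 0 to 5 in mutant rescue against knockdown, 0 to 1 in rescue against knockdown and 0 to 3 in knockdown against control. Over all genes it gave 241 to 2870, 79 to 2801, 176 to 864 and 179 to 2359 calls in that order, 1440 to 3953 in mutant rescue against control and 361 to 1422 in rescue against control. Differences near 0 changed sign when 1 library was left out. In rescue against knockdown they ran from -0.104 to 0.0122 for HLA-DPA1, -0.238 to 0.00550 for HLA-DQA1 and -0.103 to 0.0618 for CD74. In mutant rescue against knockdown HLA-DPA1 ran from -0.0865 to 0.0743, and against rescue from -0.0408 to 0.120. In rescue against control HLA-DQA1 ran from -0.00437 to 0.239, HLA-DMA from -0.0399 to 0.431 and CIITA from -0.0869 to 0.177. HLA-DPA1 and HLA-DPB1 did not pass the filter at 5 ppm and gave no value there. The cause of these changes was not tested, beyond the fewer libraries fitted. Depth could not be examined.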
